A study of Homo sapiens with 12 samples.

Results

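The genes described here are 10 genes of the integrated stress response, ATF4, ATF3, DDIT3, DDIT4, TRIB3, CHAC1, ASNS, SESN2, CEBPB and PPP1R15A, chosen by symbol from a table of 20318 gene entries. They were measured by RNA sequencing in Z138, a human mantle cell lymphoma line of wild-type genotype. Cells received 0.5 µM AU-15330 or its vehicle DMSO and were harvested after 8 h or 24 h, which gives 4 groups. AU-15330 is a PROTAC, a molecule that recruits a ubiquitin ligase to its targets so that they are destroyed. Its targets are PBRM1, a subunit of the PBAF complex, and the motor subunits of BAF-type chromatin remodellers, SMARCA4 and SMARCA2. All groups were of the same line and medium, and DMSO was the only control, so no inactive analogue of the degrader was compared. The labels list 3 samples per group. A pair of identical columns in DMSO at 8 h was counted as 1 library without a replicate number, so DMSO at 8 h had n = 2 and the other groups n = 3. The labels do not say that replicates were separate cultures, and the p-values then measure only the spread between these libraries, which may be technical. Each time was its own labelled batch, and treated libraries were set against DMSO of their own batch only.

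The integrated stress response is a shared answer of cells to amino acid shortage, misfolded protein in the endoplasmic reticulum, haem deficiency and viral RNA. A kinase of the EIF2AK family phosphorylates the translation factor eIF2, general translation falls, and the mRNA of the transcription factor ATF4 is translated more. ATF4 protein, as a dimer with C/EBP and other basic leucine zipper (bZIP) factors, then drives genes for amino acid supply, for further transcription factors and for the regulators that end the response. Part of the control of ATF4 lies in its translation, and these data measure RNA only, with no protein and no phosphorylation of eIF2.

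The letters that ATF4 dimers are known to bind were searched for in the promoters of the 10 genes, since a match marks where the response could act on the gene directly. The motifs were the C/EBP-ATF response element core TGATGNAA and the cyclic AMP response element TGACGTCA, each on both strands, in the 250 bases upstream of every annotated start (RefSeq, GRCh38.p14). The 10 genes had 17 such windows. The core occurred in 3 of the 17, against 3.14% of all 35116 windows, and the cyclic AMP element in 1 of the 17, against 1.65%. The 4 matches are shown 5′ to 3′ on the strand of the gene, with the motif in capitals.

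ATF3 (chr1:212565157-212565283, plus strand): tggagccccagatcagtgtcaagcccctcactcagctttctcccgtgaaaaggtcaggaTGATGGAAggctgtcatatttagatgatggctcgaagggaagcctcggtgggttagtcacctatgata
ASNS (chr7:97872458-97872487, minus strand): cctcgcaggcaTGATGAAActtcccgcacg
CHAC1 (chr15:40953251-40953280, plus strand): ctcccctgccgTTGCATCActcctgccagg
PPP1R15A (chr19:48872303-48872391, plus strand): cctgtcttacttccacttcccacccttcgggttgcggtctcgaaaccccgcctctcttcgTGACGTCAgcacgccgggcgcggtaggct

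ASNS and ATF3 each had 2 annotated starts, and for each gene only 1 of the 2 windows held a match. The ASNS match lay 68 to 61 bases upstream of the start at 97872408. The ATF3 match lay 191 to 184 bases upstream of the start at 212565407. The CHAC1 match lay 209 to 202 bases upstream and reads as the core on the opposite strand. In PPP1R15A the cyclic AMP element, which reads the same on both strands, lay 58 to 51 bases upstream. The ASNS and CHAC1 matches fell within an exon of another annotated transcript of the same gene, and the other 2 fell in no exon. No match was found in the windows of ATF4, DDIT3, DDIT4, TRIB3, SESN2 and CEBPB. These are matches of letters, and no binding was measured.

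Values are normalised counts, which are comparable between libraries for 1 gene and not between genes of different length. Estimated total counts were 50765418 to 67572111 per library. Changes are differences of log2(normalised count + 60) with the standard error (SE), where 1 CPM (a count scaled to library size) corresponds to 59.4 normalised counts. Limma's p-values were adjusted by the Benjamini-Hochberg method across 12721 tested genes, and a gene is said to rise or fall only below 0.05. All 10 genes passed the filter of at least 1 CPM in at least 3 libraries. B cell markers were present, with CD79A between 4553 and 12340 and MS4A1 between 10467 and 37107 normalised counts, while CD5 was between 0 and 2.92. The summed B cell markers were 54652 to 56941 in DMSO and 30054 to 32965 in AU-15330 at 8 h, and 74735 to 75025 against 23952 to 25762 at 24 h. Of markers of other cells, the 3 of 4 myeloid genes in the table summed to 6.79 to 75.8 and the 2 of 3 erythroid genes to 0 to 22.0. The 5 T cell genes summed to 812 to 830 in DMSO and 402 to 426 in AU-15330 at 8 h and to 810 to 857 against 593 to 633 at 24 h, mostly CD3G and CD28, with CD3D and CD8A at most 11.7 and 22.4. These sums hide opposite shifts. At 24 h the DMSO and AU-15330 means were 711 and 94.1 for CD3G and 66.7 and 1.22 for CD3E, but 30.4 and 491 for CD28. At 8 h they were 739 and 297, 49.9 and 9.62, and 19.8 and 102. The 3 fibroblast genes summed to 649 to 989 against 174 to 324 at 8 h and 1196 to 1278 against 76.2 to 233 at 24 h, nearly all from COL1A1, with COL1A2 and DCN at most 6.35 and 5.64. CCND1, the cyclin D1 gene that defines mantle cell lymphoma, lay between 146895 and 169249. SOX11, the other marker of this lymphoma examined, ranged more widely, from 4640 to 11539. Its 24 h mean was 11310 with the degrader against 5057 with vehicle, while the 8 h means were 6191 against 5439. Mitochondrially encoded RNA took 0.705%, 1.06% and 0.777% of the AU-15330 libraries at 8 h and 0.935% to 1.22% of the others. The part of these shifts in the results below was not tested.

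After 8 h of AU-15330, the 10 genes split into 2 directions. CHAC1, CEBPB, DDIT4, ASNS and ATF4 rose, ATF3, TRIB3, SESN2 and DDIT3 fell, and PPP1R15A did not pass the test. Of all tested genes 44.2% passed, 22.9% as higher and 21.4% as lower, beside 9 of the 10 genes here. In each of the 10 the AU-15330 and DMSO libraries at 8 h did not overlap, which also held for 62.5% of tested genes. The median change of the 10 was 0.02, the same as the median of all tested genes, with rises and falls on both sides of it. At 24 h, CEBPB, ASNS and DDIT4 were still higher and ATF3, TRIB3 and PPP1R15A lower, so 3 rose and 3 fell while 4 did not pass, against a background of 50.9% passing, 24.7% as higher and 26.2% as lower. The groups did not overlap in 5 of the 10 genes at 24 h, beside 59.0% of tested genes. Their median change at 24 h was 0.02, beside 0.01 for all tested genes.

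**Figure D1:**
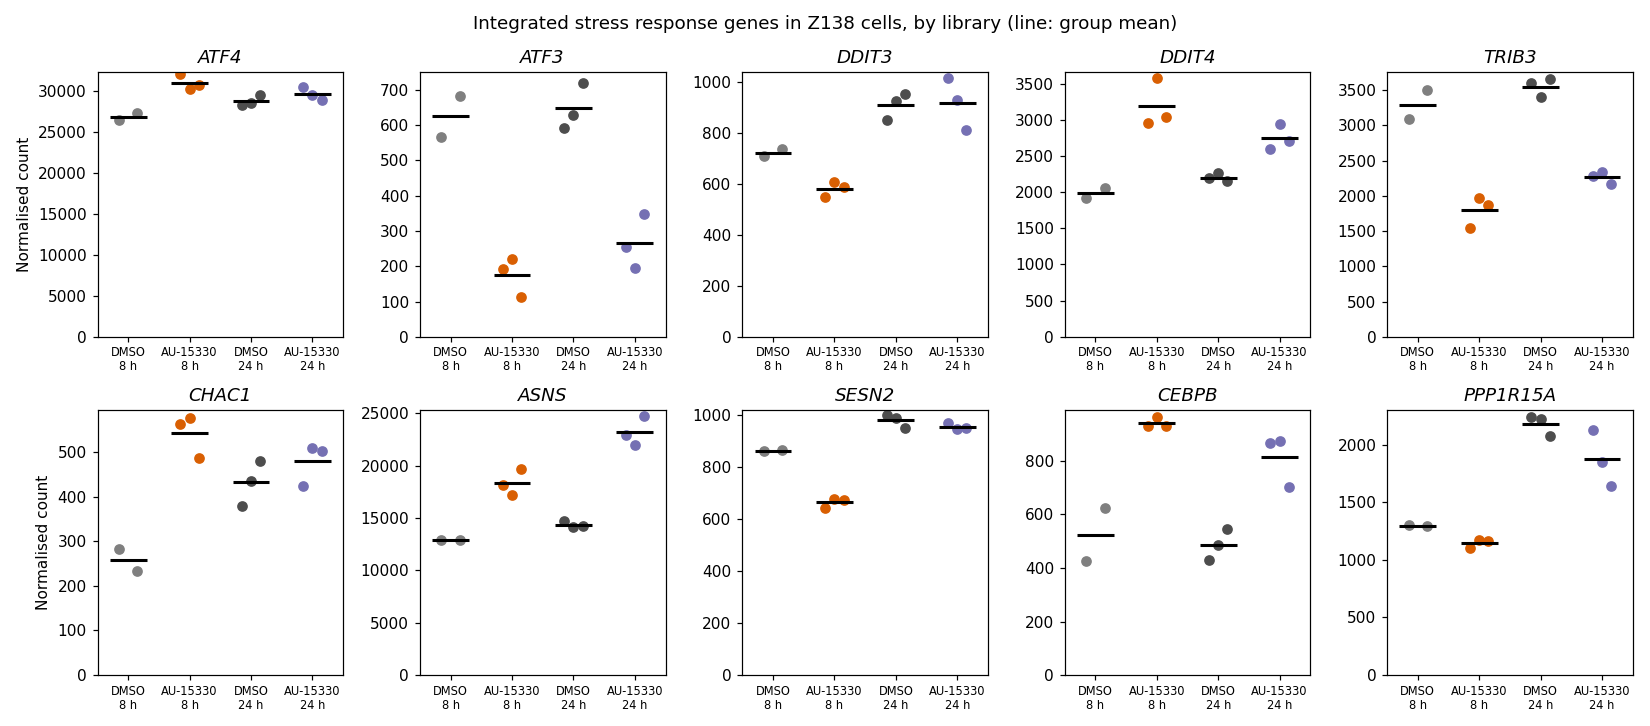
Normalised counts of the 10 genes by library, 1 panel per gene with its own axis from 0; points are libraries (n = 2 for DMSO at 8 h, n = 3 for the other groups) and lines are group means. ATF3 and TRIB3 lie lower in AU-15330 than in DMSO at both times, ASNS, CEBPB and DDIT4 lie higher at both times, and CHAC1 is separated from DMSO only among the 8 h libraries.

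ATF4, the central transcription factor of the response (ENSG00000128272.14, GRCh38 chromosome 22, 39519695 to 39522685, plus strand), changed little. Its normalised counts were 26549 and 27330 in DMSO at 8 h and 32121, 30280 and 30781 in AU-15330. At 24 h they were 28385, 28557 and 29624 in DMSO and 30553, 29563 and 28928 in AU-15330. The 8 h groups were apart, while the 24 h groups overlapped. The group mean was 26940 ± 552 (SD, n = 2) in DMSO and 31061 ± 952 (SD, n = 3) in AU-15330 at 8 h, which is 1.15 times the control. This was a log2 change of 0.20 ± 0.0372 (SE, limma adjusted p = 0.00102), and 50.5% of tested genes had a larger absolute change. At 24 h the change was 0.04 ± 0.0333 (limma adjusted p = 0.339), and it was 0.12 with a limma adjusted p of 0.0145 after quantile normalisation. In the order of group means, AU-15330 at 8 h was highest, then AU-15330 at 24 h, DMSO at 24 h and DMSO at 8 h, and only DMSO at 8 h did not overlap its neighbour. The ATF4 pseudogenes ATF4P1 to ATF4P4 had mean normalised counts of 1.69, 1.69, 9.64 and 20.6, far below the gene itself. RNA was taken from whole cultures, so a lower level per cell and fewer cells with the transcript cannot be told apart for any gene here.

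ATF3 encodes a bZIP repressor that ATF4 is known to induce and that is often used as a marker of the response (ENSG00000162772.17, chromosome 1, 212565334 to 212620777, plus strand). It went the other way from ATF4 and had the widest fall of the 10 genes at both times. DMSO libraries at 8 h had 567 and 683 normalised counts and AU-15330 libraries had 193, 220 and 114. At 24 h DMSO libraries had 593, 630 and 721, and AU-15330 libraries had 255, 194 and 347. Every AU-15330 library was below every DMSO library of both times. The means were 625 ± 81.8 (SD, n = 2) and 176 ± 55.0 (SD, n = 3) at 8 h, so the treated level was 0.281 times the control, and 648 ± 65.9 and 265 ± 77.1 at 24 h (SD, n = 3 each), 0.410 times the control. The log2 changes were -1.56 ± 0.218 (limma adjusted p = 9.28e-05) and -1.14 ± 0.195 (limma adjusted p = 1.93e-04). At 8 h 1.30% and at 24 h 4.70% of tested genes changed by more in either direction.

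DDIT3 encodes CHOP, a bZIP factor linked to cell death after prolonged stress (ENSG00000175197.12, chromosome 12, 57516588 to 57521737, minus strand). At 8 h it had 709 and 739 normalised counts in DMSO and 550, 608 and 588 in AU-15330, which was lower in 3 of 3 libraries. The 24 h values were 854, 927 and 954 in DMSO and 1018, 931 and 811 in AU-15330 and overlapped. The change at 8 h was -0.29 ± 0.0954 (limma adjusted p = 0.0407), near the threshold. The call was lost without any 1 of the 5 libraries compared. Without DMSO replicate 1 and without the unnumbered DMSO library the limma adjusted p was 0.0982 and 0.167, and without AU-15330 replicates 1, 2 and 3 it was 0.108, 0.0519 and 0.0710. It was also lost without replicate 2 of DMSO at 24 h (0.0536) and of AU-15330 at 24 h (0.0537), which enter only through the shared spread, and with quantile normalisation (-0.18, limma adjusted p = 0.170). At 24 h the change was 0.01 ± 0.0853 (limma adjusted p = 0.929). DDIT3 shares 982 bases with the opposite strand of the methionyl-tRNA synthetase gene MARS1, which rose by 0.35 at 8 h, and 1028 bases with MBD6. On its own strand it shares 2769 bases with the protein-coding gene AC022506.1, which was not in the table. The sources used here do not give whether counting used strand, and reads from the shared bases cannot be assigned.

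CEBPB encodes C/EBP beta, a dimer partner of ATF4 and itself a target of the response (ENSG00000172216.6, chromosome 20, 50190734 to 50192689, plus strand). It was higher at both times. Normalised counts were 426 and 623 in DMSO and 930, 963 and 931 in AU-15330 at 8 h. They were 428, 487 and 544 in DMSO and 866, 875 and 701 in AU-15330 at 24 h. The lowest AU-15330 value, 701, was above the highest DMSO value, 623. Means rose from 524 ± 139 (SD, n = 2) to 941 ± 18.3 (SD, n = 3) at 8 h and from 487 ± 58.1 to 814 ± 97.8 at 24 h (SD, n = 3 each), 1.80 and 1.67 times the control. The log2 changes were 0.80 ± 0.145 (limma adjusted p = 6.87e-04) and 0.68 ± 0.130 (limma adjusted p = 9.65e-04). The spread of the 2 DMSO libraries at 8 h was wide, and leaving out libraries gave 8 h changes between 0.55 and 1.04. An antisense gene, CEBPB-AS1, overlaps it on the opposite strand.

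TRIB3 encodes a pseudokinase that binds ATF4 and limits its activity, and it is a standard ATF4 target (ENSG00000101255.11, chromosome 20, 362835 to 397559, plus strand). It fell at both times. DMSO libraries had 3089 and 3501 normalised counts at 8 h and 3597, 3403 and 3654 at 24 h. AU-15330 libraries had 1549, 1963 and 1867 at 8 h and 2287, 2337 and 2172 at 24 h. The highest treated value, 2337, was below the lowest control value, 3089. Means were 3295 ± 291 (SD, n = 2) against 1793 ± 217 (SD, n = 3) at 8 h and 3551 ± 132 against 2265 ± 84.6 at 24 h (SD, n = 3 each), 0.544 and 0.638 times the control. The log2 changes were -0.86 ± 0.0912 (limma adjusted p = 1.64e-05) and -0.64 ± 0.0816 (limma adjusted p = 3.20e-05), and 6.70% and 14.0% of tested genes changed by more.

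ASNS encodes asparagine synthetase and is a textbook target of ATF4 (ENSG00000070669.17, chromosome 7, 97852118 to 97872542, minus strand). In contrast to TRIB3 and ATF3, it rose at both times. Normalised counts were 12880 and 12900 in DMSO and 18145, 17202 and 19696 in AU-15330 at 8 h. At 24 h DMSO libraries had 14699, 14130 and 14270 and AU-15330 libraries had 22905, 21975 and 24707. None of the 4 groups overlapped another, in the order DMSO at 8 h, DMSO at 24 h, AU-15330 at 8 h and AU-15330 at 24 h from low to high. The means were 12890 ± 13.8 (SD, n = 2), 18348 ± 1259 for AU-15330 at 8 h, 14366 ± 297 for DMSO at 24 h and 23196 ± 1389 for AU-15330 at 24 h (SD, n = 3 each). AU-15330 gave 1.42 times the control at 8 h, a log2 change of 0.51 ± 0.0583 (limma adjusted p = 4.84e-05). At 24 h it gave 1.61 times, a log2 change of 0.69 ± 0.0521 (limma adjusted p = 9.09e-07). The pseudogenes ASNSP1 and ASNSP4 were in the table with means of 155 and 5.68. AC079781.5, which shares 20425 bases with ASNS on the same strand, was not in the table.

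CHAC1 encodes an enzyme that degrades glutathione and is induced through ATF4 (ENSG00000128965.13, chromosome 15, 40952962 to 40956519, plus strand). It had the largest rise of the 10 genes at 8 h and none that passed the test at 24 h. Normalised counts at 8 h were 282 and 234 in DMSO and 562, 577 and 487 in AU-15330. At 24 h they were 378, 436 and 481 in DMSO and 423, 510 and 503 in AU-15330. The treated libraries of both times overlapped, and the DMSO libraries of 24 h were all above those of 8 h. Means were 258 ± 34.1 (SD, n = 2) against 542 ± 48.2 (SD, n = 3) at 8 h, 2.10 times the control, and 432 ± 51.8 against 479 ± 48.6 at 24 h (SD, n = 3 each), 1.11 times. The log2 change was 0.92 ± 0.124 at 8 h (limma adjusted p = 1.59e-04) and 0.13 ± 0.111 at 24 h (limma adjusted p = 0.338).

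DDIT4 and SESN2 both encode stress-induced inhibitors of mTORC1, the kinase complex that couples nutrients to growth. They moved in opposite directions. DDIT4, which acts through the TSC complex (ENSG00000168209.5, chromosome 10, 72273920 to 72276036, plus strand), had 1917 and 2061 normalised counts in DMSO and 2959, 3578 and 3034 in AU-15330 at 8 h. Its 24 h values were 2194, 2258 and 2149 in DMSO and 2595, 2934 and 2699 in AU-15330, so the groups were apart at both times. Means were 1989 ± 102 (SD, n = 2) against 3191 ± 338 (SD, n = 3) at 8 h, 1.60 times the control, and 2200 ± 54.8 against 2743 ± 173 at 24 h (SD, n = 3 each), 1.25 times. The log2 changes were 0.66 ± 0.0819 (limma adjusted p = 8.55e-05) and 0.31 ± 0.0732 (limma adjusted p = 0.00566). The antisense gene DDIT4-AS1 overlaps DDIT4.

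SESN2, a leucine sensor upstream of mTORC1 (ENSG00000130766.5, chromosome 1, 28259527 to 28282491, plus strand), had 862 and 864 normalised counts in DMSO and 641, 679 and 672 in AU-15330 at 8 h. Its 24 h values were 1001, 988 and 951 in DMSO and 968, 945 and 952 in AU-15330, which overlapped. Treated cells at 8 h had 0.770 times the control mean, 664 ± 20.2 (SD, n = 3) against 863 ± 1.45 (SD, n = 2). The log2 change was -0.35 ± 0.0635 at 8 h (limma adjusted p = 0.00112) and -0.03 ± 0.0568 at 24 h (limma adjusted p = 0.617). The table holds 2 entries for SESN2 with identical values, so its reads may have been split between copies and its level is uncertain. Summing both entries gave -0.36 at 8 h and -0.04 at 24 h.

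PPP1R15A encodes GADD34, the stress-induced subunit that directs protein phosphatase 1 to eIF2 and so ends the response (ENSG00000087074.8, chromosome 19, 48872392 to 48876057, plus strand). Normalised counts at 8 h were 1303 and 1295 in DMSO and 1107, 1170 and 1165 in AU-15330. At 24 h they were 2245, 2224 and 2073 in DMSO and 2128, 1851 and 1644 in AU-15330. The 8 h groups did not overlap and the 24 h groups did. The change was -0.17 ± 0.0901 at 8 h (limma adjusted p = 0.201) and -0.22 ± 0.0806 at 24 h (limma adjusted p = 0.0352), 0.883 and 0.860 times the control. The 24 h call was lost without DMSO replicate 1 or 2 (limma adjusted p = 0.100 and 0.0932) and without AU-15330 replicate 2 or 3 (limma adjusted p = 0.0831 and 0.131), and under quantile normalisation, centred library medians and log2(CPM + 1) (limma adjusted p = 0.0589, 0.0620 and 0.114). Without AU-15330 replicate 3 the change was -0.13.

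**Figure D2:**
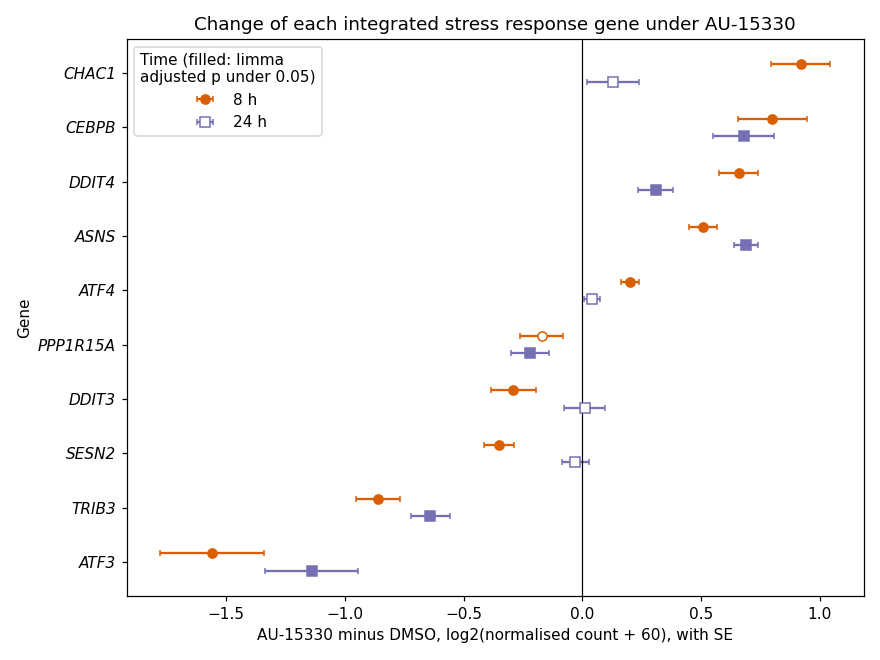
Change of each of the 10 genes under AU-15330, as the difference from DMSO in log2(normalised count + 60) with the SE; circles are 8 h and squares 24 h, and filled symbols passed an adjusted p of 0.05 in limma. The genes run from CHAC1 (0.92 at 8 h) at the top to ATF3 (-1.56 at 8 h) at the bottom, and 24 h values of ATF4, DDIT3, SESN2 and CHAC1 lie near 0.

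Whether the effect of AU-15330 differed between the times was tested directly, as the effect at 24 h minus that at 8 h, and 3 of the 10 genes passed. SESN2 was higher by this measure, at 0.32 ± 0.0852 (limma adjusted p = 0.0299), and ATF4 and CHAC1 were lower, at -0.16 ± 0.0499 (limma adjusted p = 0.0424) and -0.79 ± 0.166 (limma adjusted p = 0.0106). In all 3 the change at 24 h was nearer to 0 than that at 8 h. Among all tested genes 18.5% passed, 7.54% as higher and 11.0% as lower. The other 7 genes did not pass, among them DDIT4 at -0.35 ± 0.110 (limma adjusted p = 0.0522) and DDIT3 at 0.30 ± 0.128 (limma adjusted p = 0.159). The median over the 10 was 0.07, beside -0.02 for all tested genes. The CHAC1 call was lost without the unnumbered DMSO library at 8 h (-0.68, limma adjusted p = 0.0513). The ATF4 and SESN2 calls were each lost when any of several single libraries was left out. For ATF4 these were both DMSO libraries at 8 h, all 3 DMSO libraries at 24 h, AU-15330 replicates 1 and 3 at 8 h and 2 and 3 at 24 h, with limma adjusted p-values from 0.0580 to 0.133. For SESN2 they were both DMSO libraries at 8 h, DMSO replicates 2 and 3 at 24 h, AU-15330 replicate 1 at 8 h and AU-15330 replicates 1 and 2 at 24 h, with limma adjusted p-values from 0.0529 to 0.0790. The DDIT3 difference passed without AU-15330 replicate 3 at 24 h (0.38, limma adjusted p = 0.0475), that of ASNS without AU-15330 replicate 3 at 8 h (0.23, limma adjusted p = 0.0432), and that of DDIT4 without AU-15330 replicate 1 at 8 h or replicate 2 at 24 h (-0.40 in both, limma adjusted p = 0.0374 and 0.0450). With other scalings the split of all calls changed, from 59.3% lower to 48.4% after quantile normalisation and 41.1% on log2(CPM + 1).

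The vehicle cultures also differed between times. CHAC1 was 0.63 ± 0.124 higher (limma adjusted p = 0.0132) and PPP1R15A 0.72 ± 0.0901 higher (limma adjusted p = 7.75e-04) in DMSO at 24 h than at 8 h, each 1.68 times its 8 h level, and 0 of the 10 genes were lower. At an unadjusted limma p under 0.05, 6 of the 10 passed in either direction, beside 3186 of all 12721 tested genes. The 6 were all higher, and the 3186 were not split by direction, so this lean has no matching background. At the adjusted threshold 10.1% of all tested genes passed, 6.56% as higher and 3.56% as lower. DDIT3, at 0.31 ± 0.0954, did not pass (limma adjusted p = 0.0644), and did without AU-15330 replicate 1 or 3 at 24 h (limma adjusted p = 0.0452 and 0.0338). Without the unnumbered DMSO library at 8 h the CHAC1 difference was 0.52 and did not pass (limma adjusted p = 0.112). The median over the 10 genes was 0.15, beside 0.01 for all tested genes. Quantile normalisation moved the share of lower calls among all genes from 35.2% to 47.4%. Time and labelled batch are the same split here and cannot be told apart. These DMSO libraries are also the controls of the AU-15330 comparisons.

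The 4 kinases that start the response were measured as RNA. At 8 h 44.2% of all tested genes passed, and 6542 of 12721 had an unadjusted limma p under 0.05. Of the 4 kinases 0 passed at 8 h in limma, nor did any at an unadjusted p under 0.05. Their log2 changes at 8 h were -0.06 for EIF2AK1 (HRI, the haem-sensing kinase), -0.19 for EIF2AK2 (PKR, which binds double-stranded RNA), 0.07 for EIF2AK3 (PERK, the kinase of the endoplasmic reticulum) and 0.02 for EIF2AK4 (GCN2, which senses uncharged tRNA). EIF2AK3 then rose at 24 h. It had 2636 and 2255 normalised counts in DMSO and 2497, 2350 and 2885 in AU-15330 at 8 h. At 24 h the DMSO libraries had 3534, 3260 and 3266 and the AU-15330 libraries 5059, 5426 and 4923, with no overlap. The change at 24 h was 0.61 ± 0.0801 (limma adjusted p = 3.56e-05), and it differed from that at 8 h by 0.53 ± 0.120 (limma adjusted p = 0.00649). EIF2AK1 had a log2 change of -0.15 ± 0.0484 at 24 h (limma adjusted p = 0.0260), a call lost under quantile normalisation (-0.03, limma adjusted p = 0.596) and without DMSO replicate 1 or 3 or AU-15330 replicate 1 or 2 (limma adjusted p = 0.0626, 0.0825, 0.106 and 0.0834). EIF2AK2, at -0.20 (limma adjusted p = 0.123), passed at 24 h without AU-15330 replicate 3 (-0.34, limma adjusted p = 0.00461). EIF2AK4, at 0.15 (limma adjusted p = 0.0649), passed at 24 h after quantile normalisation (0.18, limma adjusted p = 0.0235) and without DMSO replicate 1 at 24 h or AU-15330 replicate 2 or 3 at 8 h (limma adjusted p = 0.0380, 0.0385 and 0.0467).

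The next list held 17 tested genes around eIF2. They encode eIF2, its exchange factor eIF2B, subunits of the phosphatases that act on eIF2, and DNAJC3, EIF2A, EIF5, GCN1 and ABCE1, other factors of translation or its control. Of the 17, 4 rose (EIF2S1, EIF2S2, PPP1CC and ABCE1), 2 fell and 11 did not pass at 8 h, and 1 rose, 6 fell and 10 did not pass at 24 h. Beside this, 22.9% of all tested genes rose and 21.4% fell at 8 h, and 24.7% rose and 26.2% fell at 24 h. The medians of the list were 0.02 and -0.04. Of the 3 subunits of eIF2 itself, 2 rose and 1 fell at 8 h. EIF2S1, the alpha subunit that the kinases phosphorylate, had 10401 and 10449 normalised counts in DMSO and 12742, 12260 and 13225 in AU-15330 at 8 h, and 10820, 10888 and 11015 against 11604, 11534 and 11372 at 24 h, with no overlap at either time. It rose at 8 h (0.29 ± 0.0362, limma adjusted p = 8.01e-05) and did not pass at 24 h (0.08 ± 0.0324, limma adjusted p = 0.0740), and the effects differed by -0.21 ± 0.0486 (limma adjusted p = 0.0135). After quantile normalisation EIF2S1 passed at 24 h (0.15, limma adjusted p = 0.00596) and the difference between the times did not (-0.10, limma adjusted p = 0.275), and log2(CPM + 1) did the same (0.13 and -0.15, limma adjusted p = 0.00692 and 0.0658). Without AU-15330 replicate 2 at 8 h EIF2S1 also passed at 24 h (limma adjusted p = 0.0492). EIF2S2, the beta subunit, rose by 0.38 ± 0.0345 at 8 h (limma adjusted p = 7.08e-06) and 0.25 ± 0.0309 at 24 h (limma adjusted p = 5.14e-05). EIF2S3, the gamma subunit, changed by -0.36 ± 0.0316 (limma adjusted p = 5.91e-06) and -0.15 ± 0.0282 (limma adjusted p = 8.89e-04). PPP1CA, a catalytic subunit of protein phosphatase 1 and thus a partner of PPP1R15A, fell from 19453 and 17656 normalised counts in DMSO to 13469, 12850 and 14404 at 8 h. Its 24 h values were 18584, 17372 and 18250 in DMSO and 11949, 11858 and 11793 in AU-15330. The changes of PPP1CA were -0.45 ± 0.0538 (limma adjusted p = 5.17e-05) and -0.60 ± 0.0481 (limma adjusted p = 1.40e-06). DNAJC3, an endoplasmic reticulum co-chaperone described as an inhibitor of eIF2 kinases, did not pass at 8 h (-0.13) and fell at 24 h (-0.45 ± 0.0674, limma adjusted p = 1.81e-04).

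Among 25 tested bZIP relatives of ATF4, 10 rose and 6 fell at 8 h and 9 rose and 8 fell at 24 h, with medians of 0.15 and 0.10. For comparison, the shares over all tested genes were 22.9% higher and 21.4% lower at 8 h and 24.7% and 26.2% at 24 h. BATF, a lymphocyte bZIP factor, had 199 and 232 normalised counts in DMSO and 65.8, 83.6 and 57.6 in AU-15330 at 8 h, a change of -1.10 ± 0.116 (limma adjusted p = 2.30e-05). BATF at 24 h had 272, 270 and 264 against 64.7, 67.1 and 52.8, a change of -1.44 ± 0.104 (limma adjusted p = 5.49e-07). XBP1, the effector of the IRE1 branch of the unfolded protein response, fell at both times, with changes of -0.74 ± 0.0573 (limma adjusted p = 2.27e-06) and -0.83 ± 0.0513 (limma adjusted p = 1.14e-07). FOSL2, a subunit of AP-1, had 33.6 and 37.0 normalised counts in DMSO and 101, 121 and 77.8 in AU-15330 at 8 h. At 24 h FOSL2 had 37.1, 38.3 and 21.3 against 86.6, 59.9 and 100. All its DMSO values lay below 1 CPM, so it passed the filter only through the AU-15330 libraries where it is high. The changes of FOSL2, which rest on low counts, were 0.74 ± 0.160 (limma adjusted p = 0.00328) and 0.62 ± 0.143 (limma adjusted p = 0.00381). FOS, an immediate-early gene and AP-1 subunit, had 47.6 and 24.0 normalised counts in DMSO and 107, 150 and 128 in AU-15330 at 8 h, and 643, 1108 and 867 in DMSO and 359, 334 and 209 in AU-15330 at 24 h. Its change was 0.98 ± 0.232 at 8 h (limma adjusted p = 0.0366) and -1.37 ± 0.208 at 24 h (limma adjusted p = 1.50e-04). The effects differed by -2.34 ± 0.311 (limma adjusted p = 0.00120). Both DMSO values of FOS at 8 h lay below 1 CPM. In DMSO its mean was 24.4 times as high at 24 h as at 8 h, and its AU-15330 means were 128 at 8 h and 301 at 24 h. The 8 h call of FOS was lost without any 1 of the 5 libraries compared, with limma adjusted p-values of 0.0688 and 0.194 without DMSO replicate 1 and the unnumbered library and 0.0505, 0.0916 and 0.0718 without AU-15330 replicates 1, 2 and 3. On log2(CPM + 5) it was 0.35 and did not pass (limma adjusted p = 0.0794).

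Genes through which ATF4 supplies amino acids moved both ways. In the synthesis list, 2 of 13 tested genes rose and 6 fell at 8 h, and 4 rose and 8 fell at 24 h, with medians of -0.06 and -0.17. Across all tested genes, 22.9% rose and 21.4% fell at 8 h, and 24.7% rose and 26.2% fell at 24 h. SHMT2, the mitochondrial enzyme that makes glycine from serine, had 70960 and 67160 normalised counts in DMSO and 39269, 41456 and 41190 in AU-15330 at 8 h. SHMT2 at 24 h had 76572, 74953 and 75779 in DMSO and 34538, 35094 and 33993 in AU-15330. The changes of SHMT2 were -0.76 ± 0.0346 (limma adjusted p = 3.28e-08) and -1.13 ± 0.0309 (limma adjusted p = 3.25e-10). GPT2, a mitochondrial alanine aminotransferase, changed by -0.69 ± 0.0555 (limma adjusted p = 2.25e-06) and -0.58 ± 0.0496 (limma adjusted p = 1.83e-06). Among the rises were CBS at both times and CTH at 24 h only, enzymes of transsulfuration, which turns homocysteine into cysteine. The others were MTHFD2 at both times and PSAT1 at 24 h. MTHFD2 changed by 0.47 (limma adjusted p = 1.80e-05) and 0.28 (limma adjusted p = 2.57e-04), and PSAT1 by 0.15 at 24 h (limma adjusted p = 0.0400). CBS rose by 1.50 ± 0.171 at 8 h (limma adjusted p = 3.59e-05) and 1.70 ± 0.153 at 24 h (limma adjusted p = 1.11e-06). Its near-identical copy CBSL, which was not on the list, changed by 1.38 ± 0.0822 and 2.19 ± 0.0735, and how reads were split between the copies is uncertain. CTH, the next enzyme of transsulfuration, had 70.3 and 134 normalised counts in DMSO and 134, 159 and 151 in AU-15330 at 8 h (0.39 ± 0.167, limma adjusted p = 0.0880). It had 113, 78.9 and 73.0 against 220, 205 and 216 at 24 h and rose (0.89 ± 0.150, limma adjusted p = 3.71e-04). The 8 h change of CTH was 0.67 without the unnumbered DMSO library and passed (limma adjusted p = 0.0120), and it was 0.10 without DMSO replicate 1.

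Of the 12 tested amino acid transporters, 3 rose and 4 fell at 8 h and 5 rose and 5 fell at 24 h, with medians of -0.03 and -0.20. These counts stand beside 22.9% higher and 21.4% lower among all tested genes at 8 h, and 24.7% and 26.2% at 24 h. SLC7A5, which imports large neutral amino acids, had 52062 and 46321 normalised counts in DMSO and 151413, 165353 and 150928 in AU-15330 at 8 h. Its 24 h values were 46427, 47311 and 47123 against 118710, 124080 and 119965. The changes of SLC7A5 were 1.66 ± 0.0515 (limma adjusted p = 3.01e-09) and 1.36 ± 0.0461 (limma adjusted p = 1.18e-09). SLC3A2, its heavy chain, rose by 0.53 ± 0.0395 (limma adjusted p = 1.55e-06) and 0.73 ± 0.0353 (limma adjusted p = 2.24e-08). SLC7A11, the cystine importer that pairs with the same heavy chain, had 783 and 584 normalised counts in DMSO and 954, 695 and 1019 in AU-15330 at 8 h, which overlapped (0.35 ± 0.157, limma adjusted p = 0.102). At 24 h it had 657, 709 and 604 against 1369, 1570 and 1623 and rose by 1.14 ± 0.140 (limma adjusted p = 2.59e-05), and the 2 effects differed by 0.79 (limma adjusted p = 0.0156), or by 0.60 without DMSO replicate 1 at 8 h (limma adjusted p = 0.0734). Without AU-15330 replicate 2 the 8 h change of SLC7A11 was 0.51 and passed (limma adjusted p = 0.0137), and without the unnumbered DMSO library it was 0.16. SLC6A9, a glycine transporter, fell at both times (-1.20 ± 0.114, limma adjusted p = 1.02e-05, and -0.76 ± 0.102, limma adjusted p = 7.45e-05).

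**Figure D3:**
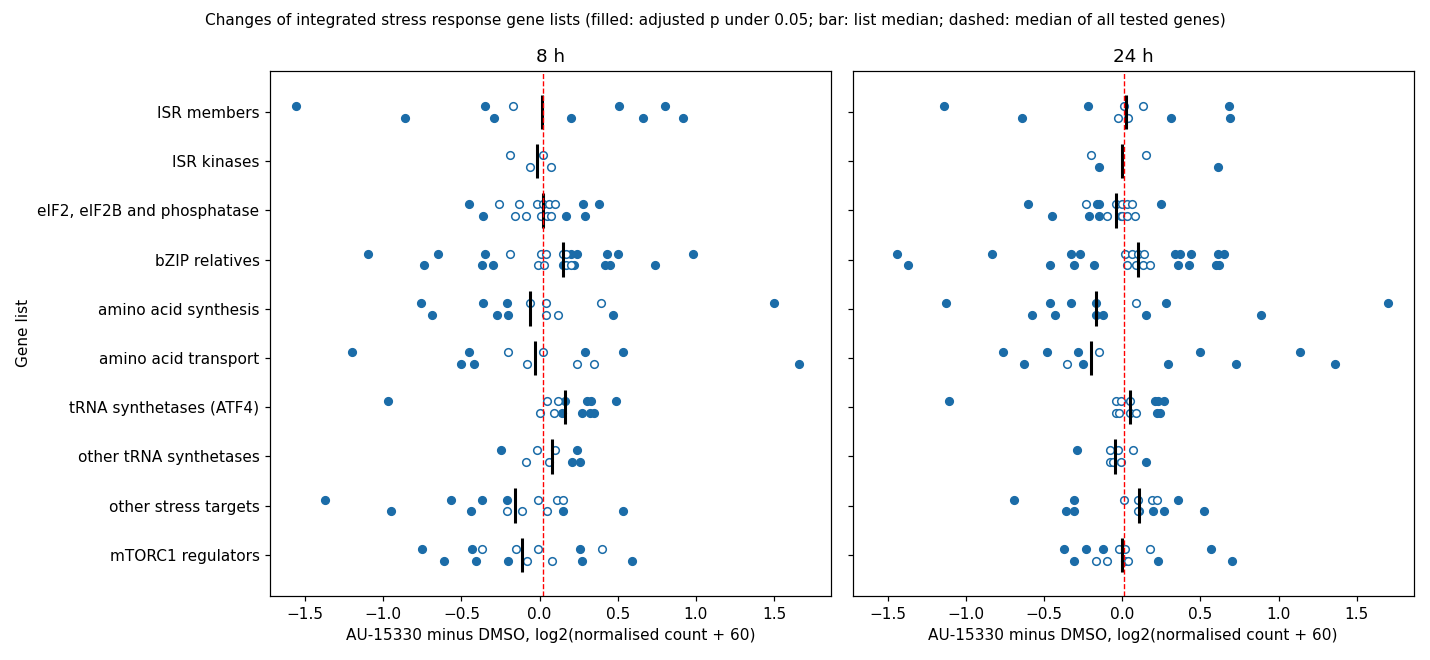
Change of every tested gene in 10 lists at 8 h (left) and 24 h (right), as AU-15330 minus DMSO in log2(normalised count + 60); filled points passed an adjusted p of 0.05, the black bar is the list median and the dashed line the median of all 12721 tested genes. Each list holds points on both sides of 0, and no list median is farther than 0.20 from 0.

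The cytosolic tRNA synthetases that ATF4 is known to drive, with the tRNA exporter XPOT, mostly rose at 8 h. Of 13 tested, 8 rose, 1 fell and 4 did not pass at 8 h, with a median of 0.16, and 5 rose, 1 fell and 7 did not pass at 24 h, with a median of 0.05. Of 8 other cytosolic synthetases, 3 rose and 1 fell at 8 h and 1 rose and 1 fell at 24 h, with medians of 0.08 and -0.05. All tested genes had shares of 22.9% higher and 21.4% lower at 8 h, and 24.7% and 26.2% at 24 h. EPRS1, which charges tRNAs for glutamate and proline, had 33907 and 35735 normalised counts in DMSO and 47455, 49929 and 49237 in AU-15330 at 8 h. Its change was 0.49 ± 0.0425 (limma adjusted p = 4.64e-06) at 8 h and 0.23 ± 0.0380 (limma adjusted p = 4.38e-04) at 24 h. MARS1 (methionine) rose by 0.35 and 0.21, GARS1 (glycine) by 0.33 and 0.24 and AARS1 (alanine) by 0.27 and 0.27. WARS1, the tryptophanyl-tRNA synthetase and also an interferon-induced gene, was the exception. It had 15376 and 14631 normalised counts in DMSO and 7396, 7985 and 7581 in AU-15330 at 8 h. Values at 24 h were 12251, 12968 and 12379 against 5746, 5822 and 5741. The changes of WARS1 were -0.97 ± 0.0430 (limma adjusted p = 2.73e-08) and -1.11 ± 0.0384 (limma adjusted p = 1.78e-09). In the other list QARS1 (glutamine) fell at both times, with changes of -0.25 ± 0.0404 and -0.29 ± 0.0361. KARS1 (lysine) rose by 0.26 at 8 h, and its 24 h change of 0.07 did not pass (limma adjusted p = 0.0747) but did after quantile normalisation (0.16, limma adjusted p = 4.59e-04) and without AU-15330 replicate 1 (0.09, limma adjusted p = 0.0390). FARSA (phenylalanine) rose by 0.24 at 8 h, and RARS1 (arginine) by 0.15 at 24 h.

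**Figure D4:**
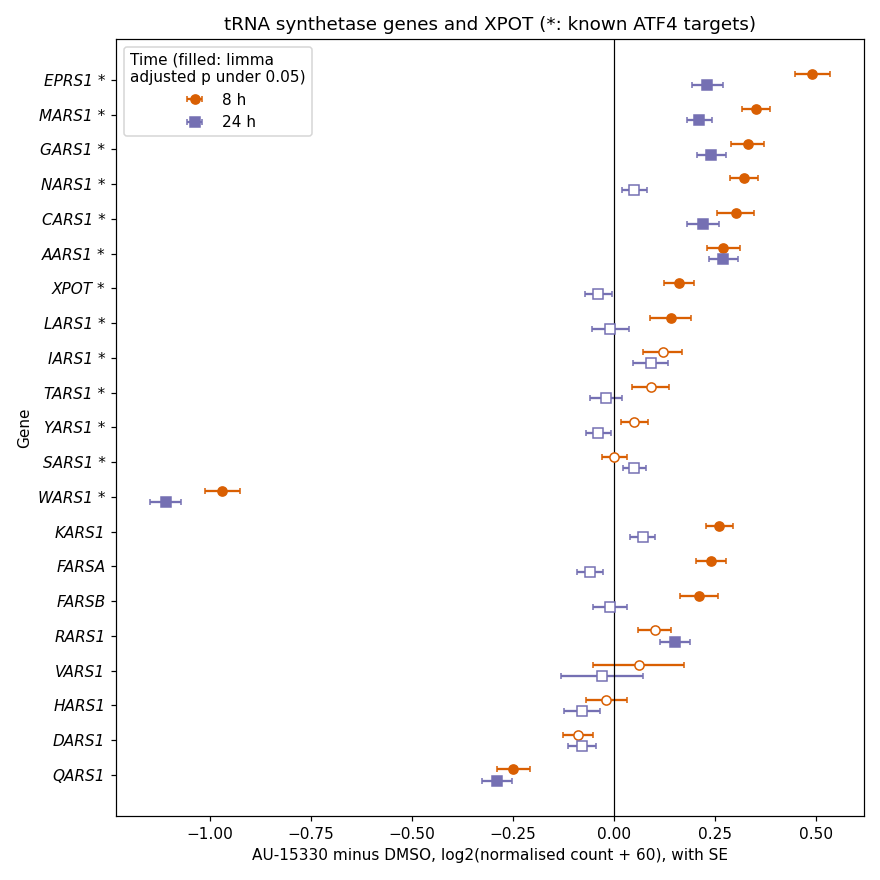
Change of the tRNA synthetase genes and XPOT under AU-15330, as the difference from DMSO in log2(normalised count + 60) with the SE; circles are 8 h, squares are 24 h, filled symbols passed an adjusted p of 0.05 in limma, and an asterisk marks known ATF4 targets. EPRS1 leads at 0.49 at 8 h, most other values lie between -0.10 and 0.35, and WARS1 stands apart at -0.97 and -1.11.

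Other known stress targets of ATF4 included genes of cell death. Of 14 tested, 2 rose and 6 fell at 8 h and 5 rose and 4 fell at 24 h, with medians of -0.16 and 0.11. CEBPG, which rose at 8 h, and JDP2, which fell at both times, are also bZIP genes of the list above. They are counted in both lists. Shares over all tested genes were 22.9% higher and 21.4% lower at 8 h, and 24.7% and 26.2% at 24 h. ADM2, a secreted peptide, had 311 and 333 normalised counts in DMSO and 79.8, 99.6 and 85.5 in AU-15330 at 8 h, a change of -1.37 ± 0.117 (limma adjusted p = 5.46e-06). Its 24 h values were 372, 342 and 328 against 220, 162 and 196 (-0.69 ± 0.104, limma adjusted p = 1.43e-04). TNFRSF10B, the death receptor DR5, had 2289 and 2083 normalised counts in DMSO and 1127, 1121 and 1050 in AU-15330 at 8 h (-0.95 ± 0.100, limma adjusted p = 3.56e-05). At 24 h it had 2493, 2521 and 2074 against 2126, 1819 and 1747, which overlapped (-0.31 ± 0.0896, limma adjusted p = 0.0124), and the call was lost without DMSO replicate 2 (limma adjusted p = 0.0519). VLDLR, a lipoprotein receptor, fell at both times, with changes of -0.57 ± 0.0830 and -0.36 ± 0.0743. BBC3, the pro-apoptotic PUMA gene, reversed between the times. It had 897 and 854 normalised counts in DMSO and 649, 684 and 567 in AU-15330 at 8 h, and 964, 887 and 791 in DMSO and 1550, 1223 and 1110 in AU-15330 at 24 h. The change of BBC3 was -0.44 ± 0.131 (limma adjusted p = 0.0340) at 8 h and 0.52 ± 0.117 (limma adjusted p = 0.00307) at 24 h, a difference of 0.95 ± 0.176 (limma adjusted p = 0.00535). Its 8 h call was lost after quantile normalisation (-0.35, limma adjusted p = 0.0762) and without either DMSO library or AU-15330 replicate 1 or 3 (limma adjusted p = 0.147, 0.0907, 0.0590 and 0.0985).

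Genes of mTORC1 and its regulators, the pathway on which DDIT4 and SESN2 act, were the last list, and of 14 tested 3 rose and 5 fell at 8 h and 3 rose and 4 fell at 24 h, with medians of -0.12 and 0.00. The background of all tested genes was 22.9% higher and 21.4% lower at 8 h, and 24.7% and 26.2% at 24 h. TSC2, the GTPase-activating subunit through which DDIT4 acts, fell at both times (-0.41 ± 0.105, limma adjusted p = 0.00692, and -0.37 ± 0.0935, limma adjusted p = 0.00690), and the 8 h call was lost without DMSO replicate 1 (limma adjusted p = 0.0762). NPRL3, a subunit of the GATOR1 complex that restrains mTORC1, had 2299 and 2365 normalised counts in DMSO and 3437, 3865 and 3319 in AU-15330 at 8 h (0.59 ± 0.0709, limma adjusted p = 6.73e-05). NPRL3 at 24 h had 2117, 2021 and 2065 against 3163, 3455 and 3585 (0.70 ± 0.0634, limma adjusted p = 5.70e-06). RRAGD, a Rag GTPase, fell at 8 h, with a change of -0.75 ± 0.0945 (limma adjusted p = 9.80e-05). Its change at 24 h was -0.23 ± 0.0845 (limma adjusted p = 0.0292), lost without any 1 DMSO library or AU-15330 replicate 1 or 3 (limma adjusted p = 0.0572 to 0.0996) and on log2(CPM + 1) (limma adjusted p = 0.0989). CASTOR2, of the arginine sensor family, had 884 and 870 normalised counts in DMSO and 535, 576 and 558 in AU-15330 at 8 h, and 806, 882 and 687 against 1162, 1166 and 1258 at 24 h. Its changes were -0.61 ± 0.0943 (limma adjusted p = 4.72e-04) and 0.57 ± 0.0844 (limma adjusted p = 1.11e-04), and they differed by 1.17 ± 0.127 (limma adjusted p = 1.65e-04). The related gene CASTOR3 was in the table at -0.57 and 0.08, and reads may be shared between them.

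The genes whose profiles over the 11 libraries were nearest to those of ATF4 and ATF3 were found by the root mean square distance between log2 profiles centred on their own means. For ATF4 they were TACO1 (0.0274), MND1 (0.0345), PIP4P1 (0.0374), ATP6V0E1 (0.0384) and ERCC3 (0.0397), none of them a gene of the lists above. For ATF3 they were KLHL26 (0.211), BCL2 (0.213), RIMS3 (0.217), CAMKV (0.221) and CD4 (0.229), again none from the lists. BCL2, the apoptosis inhibitor, changed by -1.44 at 8 h and -1.13 at 24 h, beside -1.56 and -1.14 for ATF3. KLHL26, RIMS3, CAMKV and CD4 changed by -1.76, -1.44, -1.79 and -1.26 at 8 h, and by -1.03, -0.98, -1.01 and -1.51 at 24 h. Similar changes follow from choosing neighbours by these same libraries.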

How the data were processed

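RNA of 12 Z138 samples was sequenced with 50 bp reads. Per the labels, TruSeq RNA v2 or stranded TruSeq total RNA kits were used, and the sources used here do not tie a kit to a sample. GRCh38.p13, kallisto 0.46.1, Trimmomatic 0.40, DESeq2 1.24.0 and R 4.3.2 are named, without parameters, in the authors' deposited processing notes (the submitters' processing notes). The authors deposited log2 values for 20318 entries, of which 1600 have no symbol. The values run from 10.36 in every library to 20.15, the form of a variance-stabilising transform of normalised counts rather than log CPM as the labels name it, and inverting it gave normalised counts. In units of 1 count, only 53.5% to 56.3% of low values (at most 20) were whole to within 0.02, so no count model was used. Of 12 columns, 1 was an identical copy and was not used. DMSO replicates 2 and 3 at 8 h are both described by that column name.

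The 12721 entries that reached 1 CPM in 3 or more libraries were fitted in limma 3.58.1 (R 4.3.3) on the deposited scale, with 1 mean per group, 7 residual degrees of freedom and a mean-dependent variance prior. Changes and SEs come from the same model on log2(normalised count + 60). The planned design assumed log CPM and 12 libraries. A symbol with several entries was represented by the highest. Named genes are the 10 genes, the 4 kinases, and up to 3 genes with the largest change past the threshold per list and comparison. Genes and lists were chosen with earlier results of these data known. CASTOR3, CBSL, CEBPG, JDP2, MAFF, MTHFD2, PSAT1 and EIF2S1 (and the names of other rises in its list) were added after their values were seen. Identifiers were matched to GENCODE 29, in which 18573 (91.4%) were found. The procedure was tested on simulated data. Alternatives were other scalings, pseudocounts, filters and variance priors, only the compared groups, a replicate block and leaving out each library. Tables used pandas 2.3.3 and NumPy 2.4.6 in Python 3.11.15, and figures Matplotlib 3.10.9.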

Additional observations from a re-analysis of the deposited data

Results flagged for a closer look

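The effect of AU-15330 differed between 8 h and 24 h by the interaction test in 3 of the 10 genes. Among all tested genes 18.5% passed this test, 7.54% as higher and 11.0% as lower. Of 21 alternative settings, 15 lost the call of ATF4, 10 that of SESN2 and 2 that of CHAC1. The effect at 24 h minus that at 8 h was -0.16 for ATF4, -0.79 for CHAC1 and 0.32 for SESN2 on the log2 scale. In CHAC1 the DMSO level also differed between the times, with means of 258 at 8 h and 432 at 24 h, while AU-15330 means were 542 and 479. In SESN2 the DMSO means were 863 and 980 and the AU-15330 means 664 and 955. In ATF4 the DMSO means were 26940 and 28855 and the AU-15330 means 31061 and 29681. The labelled batches are the same split as the times, and the part of either was not tested.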

How the results depend on the processing

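Across 22 alternatives none of the 10 genes had a called change that turned its direction. At 8 h 210 of 220 checks kept the call, and the 10 losses were all of DDIT3. At 24 h 208 of 220 did, with 9 losses of PPP1R15A and 3 gains of ATF4 (0.12 after quantile normalisation, 0.09 on log2(CPM + 1) and log2(CPM + 5)). For the difference between the times, 175 of 210 checks kept the call, with 27 losses (ATF4 15, SESN2 10, CHAC1 2) and 8 gains (DDIT4 4, ASNS 3, DDIT3 1). The count of genes with a higher difference, 1 in the analysis reported, was 2 on log2(CPM + 5), 0 without a filter, and 0 to 2 when single libraries were left out. The count with a lower difference, 2 as reported, was 1 after quantile normalisation, with centred medians, on log2(CPM + 1), on log2(CPM + 5) and without a filter, and 0 to 2 when single libraries were left out. In DMSO at 24 h against 8 h, the 2 higher genes became 1 to 3 when single libraries were left out. DMSO over time kept the call in 215 of 220 checks, with 2 losses of CHAC1 and 3 gains. No scaling tried moved the median of all genes by more than 0.1.

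Deviations from group means correlated between -0.0434 and 0.134 for samples of the same replicate number. Samples of different number were not correlated for comparison, so these values do not settle whether the numbers pair the samples. In the fit with the replicate number as a block, the unnumbered DMSO library at 8 h was a level of its own and was fitted exactly. DMSO at 8 h then rested on 1 library, so this setting cannot separate a block from the loss of that library. The same holds for the counts with the block given below. With the block the 8 h change of DDIT3 was -0.27, and the difference between the times was -0.59 for CHAC1.

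Over all tested genes, the difference between the times had 959 higher and 1399 lower calls. These were 516 and 756 with the block, 602 higher without the unnumbered DMSO library, and 886 and 898 lower on log2(CPM + 1) and log2(CPM + 5). For DMSO over time the 834 higher and 453 lower calls became 306 and 125 with the block, 484 and 204 without DMSO replicate 1 at 8 h, 463 and 198 without the unnumbered library, and 273, 283 and 275 lower without DMSO replicates 1, 2 and 3 at 24 h. Of 18 list counts, 14 at 8 h and 7 at 24 h stayed within 1.5 times under all 22 alternatives. At 8 h the bZIP rises ranged from 6 to 11, the mTORC1 falls from 3 to 5, the other stress target rises from 1 to 2 and the falls among other synthetases from 1 to 2. At 24 h the kinases had 1 to 2 rises and 0 to 2 falls, genes around eIF2 1 to 3 rises, bZIP genes 5 to 8 falls, synthesis genes 5 to 8 falls, ATF4-target synthetases 5 to 8 rises and 1 to 2 falls, other synthetases 1 to 2 rises, other stress targets 2 to 7 rises and 2 to 4 falls, and mTORC1 regulators 2 to 4 falls.

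Estimated totals of at least 50765418 counts per library limit mainly the lowest genes, and with 2 DMSO libraries at 8 h the control spread there rests on few values.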
